A study of Mus musculus with 6 samples.

Results

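Hemoglobin, the oxygen carrier of red blood cells, joins 2 alpha and 2 beta globin chains around heme. Red cells assemble it while they mature in the bone marrow or spleen, and reticulocytes, the youngest circulating red cells, have lost their nucleus but still carry globin mRNA. Transcripts of hemoglobin in a solid tumor are therefore commonly read as a measure of the blood it holds. The genes examined here are the 4 adult globin genes Hba-a1, Hba-a2, Hbb-bs and Hbb-bt, the gene Alas2 for the erythroid form of the first enzyme of heme synthesis, and the gene Slc4a1 for band 3, the anion exchanger of the red cell membrane. These 6 genes were chosen by name among the 45777 genes of the deposited table, and all 6 passed the filter on low counts.

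B16F10 cells, a mouse melanoma line, formed the tumors, and total RNA was sequenced from 3 tumors of the hind footpad and 3 of the flank skin, with 1 library each. The sample labels give hosts of the genotype Foxn1-/-, which lack a thymus, at an age of 8 weeks for both sites, while the paper also used C57BL/6J hosts and its text names none for the sequenced tumors. The paper's methods speak of tumor cells isolated from the implantation sites and name no way of separating them from other cells or from blood. The paper's C57BL/6J and Foxn1-null hosts both received B16F10 cells in the 2 sites at once, so tumors of the 2 sites may share animals. No source used here ties a tumor to an animal. The main p-values set a site difference against the spread between tumors of a site, and they treat the 6 tumors as independent. Genes counted between 46529649 and 66364366 reads per tumor. The melanocyte list, led by the pigment enzyme genes Tyrp1 and Dct, summed to between 9809 and 23975 RPM, the reads of a gene scaled to a library of 1000000 reads, and 0 of its 10 genes were called different between the sites by edgeR or DESeq2, with Tyr alone at an unadjusted edgeR p under 0.05.

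The alpha genes lie on chromosome 11 of GRCm38, with Hba-a1 at chr11:32283672-32284486 and Hba-a2 at chr11:32296492-32297310, and their starts are 12820 bases apart. Hbb-bs lies at chr7:103826523-103827928 and Hbb-bt at chr7:103812524-103813923, both on the minus strand. Slc4a1 spans chr11:102348820-102365281, and Alas2 spans chrX:150547417-150570622. The coding sequences of Hba-a1 and Hba-a2 are 429 bases long and differ at 1 base, C381T, counted from the A of the start codon with the base of Hba-a1 first. Those of Hbb-bs and Hbb-bt are 444 bases long and differ at 1 base, C417T, with the base of Hbb-bs first. The stretches around these bases are shown because they are why the copies were summed. They are exonic, written 5′ to 3′ on the gene's strand from the GRCm38 reference, with the differing base in capitals.
Hba-a1, chr11:32284313-32284373: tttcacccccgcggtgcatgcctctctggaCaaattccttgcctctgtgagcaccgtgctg
Hba-a2, chr11:32297130-32297190: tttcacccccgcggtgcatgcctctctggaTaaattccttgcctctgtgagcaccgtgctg
Hbb-bs, chr7:103826665-103826722: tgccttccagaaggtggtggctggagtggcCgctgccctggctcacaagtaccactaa
Hbb-bt, chr7:103812656-103812713: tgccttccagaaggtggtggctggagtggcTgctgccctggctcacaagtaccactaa
Of all stretches of 100 bases in the Hba-a1 transcript, 56.5% also occur in the Hba-a2 transcript, and 62.6% of those in Hbb-bs also occur in Hbb-bt. How the authors counted reads that match both copies is not given in the sources used here. The level of a single copy is therefore uncertain, and the sums of the 2 alpha and of the 2 beta copies were tested.

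The promoters of 3 of the genes are shown because levels of these genes moved together over the 6 tumors. They come from RefSeq on GRCm38.p6, in which 5 of the 6 genes had a promoter entry, and end 11 bases before the transcript start. Capitals mark GATAA, the core of the sites bound by GATA factors, CACCC, the core of the sites bound by KLF factors, and CCAAT, each on either strand, and TATAA on the gene's strand.
Hba-a2, chr11:32296292-32296481: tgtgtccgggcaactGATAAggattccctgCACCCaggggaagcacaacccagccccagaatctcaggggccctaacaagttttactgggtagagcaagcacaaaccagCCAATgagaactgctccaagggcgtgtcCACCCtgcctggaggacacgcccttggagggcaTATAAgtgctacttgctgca
Hbb-bs, chr7:103827939-103828158: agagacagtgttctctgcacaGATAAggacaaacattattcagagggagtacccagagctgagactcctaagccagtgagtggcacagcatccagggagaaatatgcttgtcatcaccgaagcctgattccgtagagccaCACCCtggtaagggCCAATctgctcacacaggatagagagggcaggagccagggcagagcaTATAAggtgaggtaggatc
Alas2, chrX:150547187-150547406: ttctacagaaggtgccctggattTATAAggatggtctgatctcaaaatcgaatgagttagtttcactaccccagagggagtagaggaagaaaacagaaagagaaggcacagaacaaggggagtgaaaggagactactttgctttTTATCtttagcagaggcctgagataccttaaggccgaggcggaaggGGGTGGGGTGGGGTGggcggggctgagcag
The 250 bases before the start held GATAA in 22.6%, CACCC in 52.0% and CCAAT in 33.8% of 32851 promoters, and TATAA in 16%. All of GATAA and CACCC and CCAAT together occurred in 3.45% of all promoters and in 4 of the 5 matched here, all but that of Alas2, which held no CCAAT. The promoters of Hba-a1 and Hba-a2 share a run of 297 of 300 bases, so they are not separate examples.

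Hemoglobin reads varied widely between tumors of the same site. The 4 globin genes took 3.39%, 0.399% and 1.77% of the reads of footpad tumors 1, 2 and 3. In flank skin tumors 1, 2 and 3 they took 2.81%, 0.372% and 0.186%. Footpad 1, footpad 3 and flank skin 1 thus stood well above the other 3, and both sites had tumors at high and at low levels. The share ranged from 1 read in 29.5 to 1 read in 537, and its exact 95% binomial interval, which covers counting error only, was 3.39% to 3.40% in footpad 1 and 0.185% to 0.187% in flank skin 3. Over the 6 tumors the highest level was 18.2 times the lowest, with 8.50 times within the footpad and 15.1 times within the flank skin. The mean was 18546 ± 14974 RPM in the footpad and 11232 ± 14651 in the flank skin (SD, n = 3 each). In bulk RNA, fewer cells of a type and less RNA per cell cannot be told apart.

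**Figure D1:**
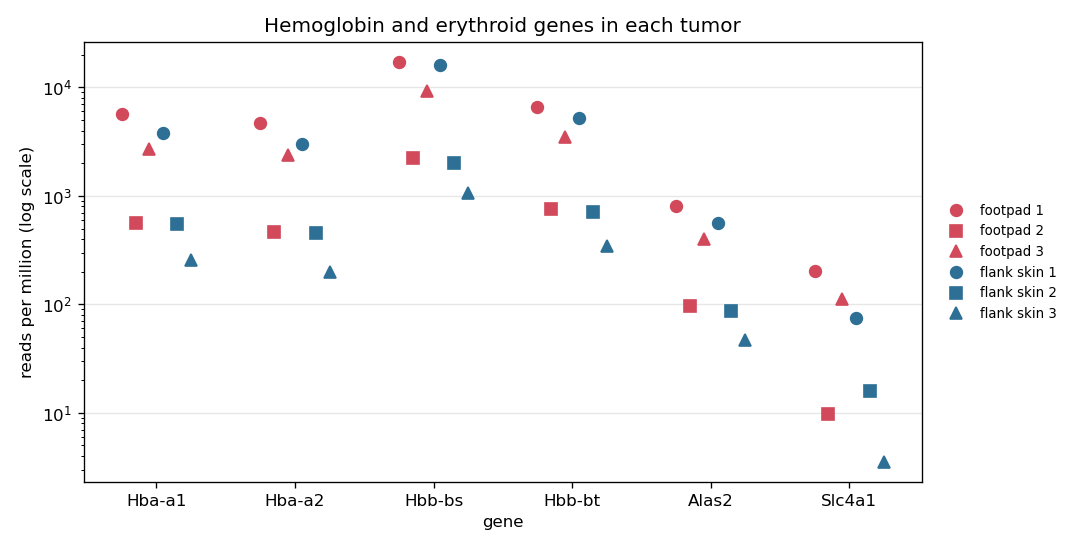
Level in RPM, on a log scale, of each gene in each tumor, with 1 point per tumor, footpad in red and flank skin in blue, and replicates 1, 2 and 3 as circles, squares and triangles. In all 6 genes footpad 1, footpad 3 and flank skin 1 lie above the other 3 tumors, and Slc4a1 has the widest range, from 3.52 to 204.

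For alpha globin, the RPM of the 2 copies together was 10326, 1022 and 5063 in footpad tumors 1, 2 and 3 and 6791, 998 and 457 in flank skin tumors 1, 2 and 3. For beta globin it was 23577, 2965 and 12685 in the footpad and 21325, 2722 and 1404 in the flank skin. In both sums flank skin 1 stood among the footpad tumors and footpad 2 close to flank skin 2, so the sites overlapped. As counted by the authors, Hba-a1 held between 53.4% and 56.1% of the alpha reads, and Hbb-bs held between 72.1% and 75.6% of the beta reads. On the FPKM scale, which corrects for transcript length, Hbb-bs was between 1491 and 22767 and ranked between 3 and 25 among all genes of a tumor.

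Alas2, which commits glycine and succinyl-CoA to heme in erythroid cells, was counted at 811, 96.1 and 404 RPM in the footpad and 560, 86.6 and 46.4 in the flank skin. Slc4a1, which exchanges chloride for bicarbonate and anchors the membrane skeleton, was counted at 204, 9.84 and 111 in the footpad and 74.3, 16.1 and 3.52 in the flank skin. Both genes had the same 3 tumors at the top as the globins, with overlapping sites. On the FPKM scale Alas2 ranged from 21.1 to 353 and Slc4a1 from 0.691 to 38.3.

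Whether the sites differed was tested with edgeR's quasi-likelihood test on the counts of the whole table, in which a gene was called at a Benjamini-Hochberg adjusted p under 0.05 with a fold of 2 or more. Alpha globin was higher in the footpad by 0.94 on the log2 scale (SE 1.11, adjusted p = 0.631), and beta globin by 0.57 (SE 1.09, adjusted p = 0.781). For Alas2 the log2 difference was 0.87 (SE 1.04, adjusted p = 0.637), and for Slc4a1 it was 1.74 (SE 1.23, adjusted p = 0.412). None of the 4 was called by edgeR, none had an unadjusted p under 0.05, and DESeq2 gave adjusted p-values between 0.512 and 0.837. Over the 17208 genes tested, 3.77% were called, 2.89% higher and 0.883% lower in the footpad, and in 29.7% all 3 tumors of one site lay above all 3 of the other, against 0 of these 4. An unadjusted p under 0.05 was reached by 25.3% of the genes tested. With DESeq2, 1558 of 28731 genes were called, 1193 higher and 365 lower in the footpad. The 28731 are all genes that DESeq2 gave a p-value, with no filter on low counts before the fit. The lists below count DESeq2 calls only among genes that passed the edgeR filter, so they and this background are unlike sets. Footpad tumors were the higher in 7 of the 9 pairs of a footpad and a flank skin tumor, for each of the 4. An exact permutation test of log2 RPM gave p = 0.4 for alpha and for beta globin, where 3 against 3 tumors cannot go below 0.1.

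The spread within sites was large beside that of other genes. The SD of log2 CPM (reads scaled as RPM, but to the library size that edgeR's TMM method gives) within sites was 1.92 for alpha globin, 1.87 for beta globin, 1.79 for Alas2 and 2.30 for Slc4a1, against a median of 0.295 over the genes tested. A larger one was found for 2.34%, 2.63%, 3.05% and 1.20% of genes, respectively.

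Single tumors decided the size of the site difference. Without flank skin 1, the only flank tumor with much hemoglobin, the log2 difference was 3.0 for alpha globin, 2.75 for beta globin, 2.80 for Alas2 and 3.57 for Slc4a1. All 4 then had an unadjusted p under 0.05, but the edgeR adjusted p lay between 0.125 and 0.164 and none was called. Without footpad 1 it was 0.03 for alpha globin, -0.23 for beta globin, 0.0035 for Alas2 and 0.84 for Slc4a1. Without flank skin 3, which held the least hemoglobin, the differences lay between 0.06 and 1.21, and without flank skin 2 between 0.12 and 1.39. Without footpad 2 they lay between 1.04 and 2.29, and without footpad 3 between 0.62 and 1.76.

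**Figure D2:**
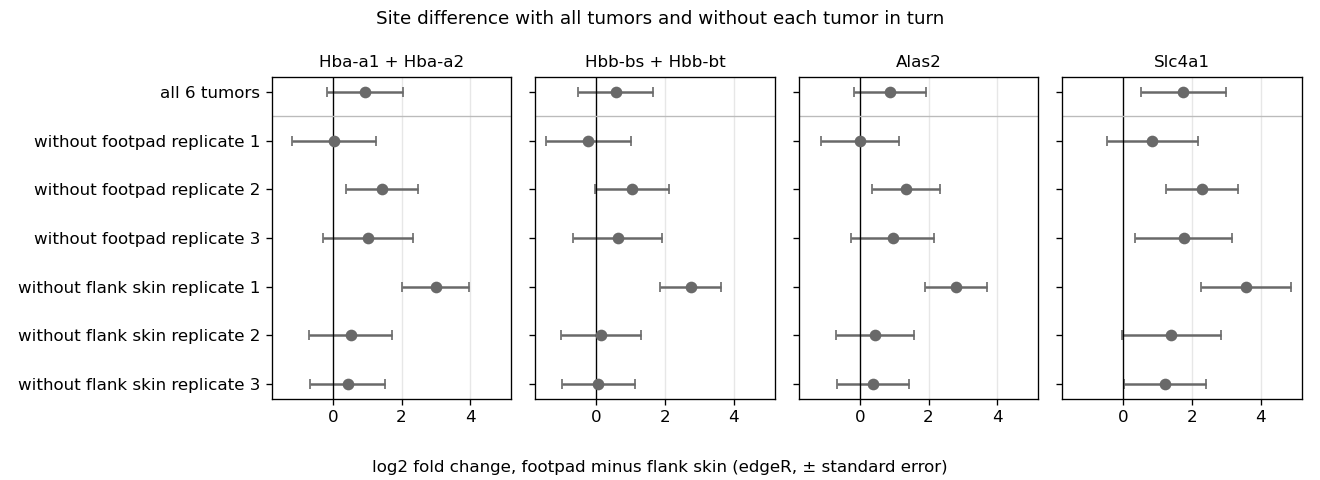
Log2 fold change of the footpad against the flank skin for the summed alpha copies, the summed beta copies, Alas2 and Slc4a1 in edgeR fits with all 6 tumors (top) and without each tumor in turn; bars are ± 1 standard error. The points lie farthest to the right without flank skin 1, between 2.75 and 3.57, and near or below 0 without footpad 1 in all but Slc4a1, at 0.84.

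Relative to each other, the globins and Alas2 were much steadier than their levels. The ratio of beta to alpha FPKM was 2.01, 2.55 and 2.21 in footpad tumors 1, 2 and 3 and 2.77, 2.40 and 2.71 in flank skin tumors 1, 2 and 3, a range of 1.37-fold. The sites overlapped in this ratio (exact permutation test, p = 0.2). Alas2 had 239, 241 and 228 reads per 10000 hemoglobin reads in the footpad and 199, 233 and 249 in the flank skin, a range of 1.25-fold with a coefficient of variation of 7.59% (exact permutation test, p = 0.8). By contrast, Slc4a1 had 60.0, 24.7 and 62.5 reads per 10000 hemoglobin reads in the footpad and 26.4, 43.2 and 18.9 in the flank skin. Footpad 1, footpad 3 and flank skin 2 were the higher tumors here, the range was 3.31-fold, and the sites overlapped (exact permutation test, p = 0.3).

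Other genes of the red cell, named after their values were seen unless they were among the most abundant of their list or most like hemoglobin over the tumors, divided in the same manner. Car2, a carbonic anhydrase of red cells, had between 7.16 and 9.30 reads per 10000 hemoglobin reads. Tent5c, which codes for a poly(A) polymerase, had 128, 115 and 110.1 in the footpad and 79.7, 108 and 105 in the flank skin. Ank1, the gene of the ankyrin that ties the membrane skeleton to band 3, had 6.19, 5.67 and 7.66 in the footpad and 1.97, 5.43 and 2.13 in the flank skin. In both Tent5c and Ank1 all 3 footpad values exceeded all 3 flank values, and the exact permutation test gave the smallest p it allows, 0.1. Site differences were tested for 16 such ratios, and none of these p-values can pass 0.05.

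**Figure D3:**
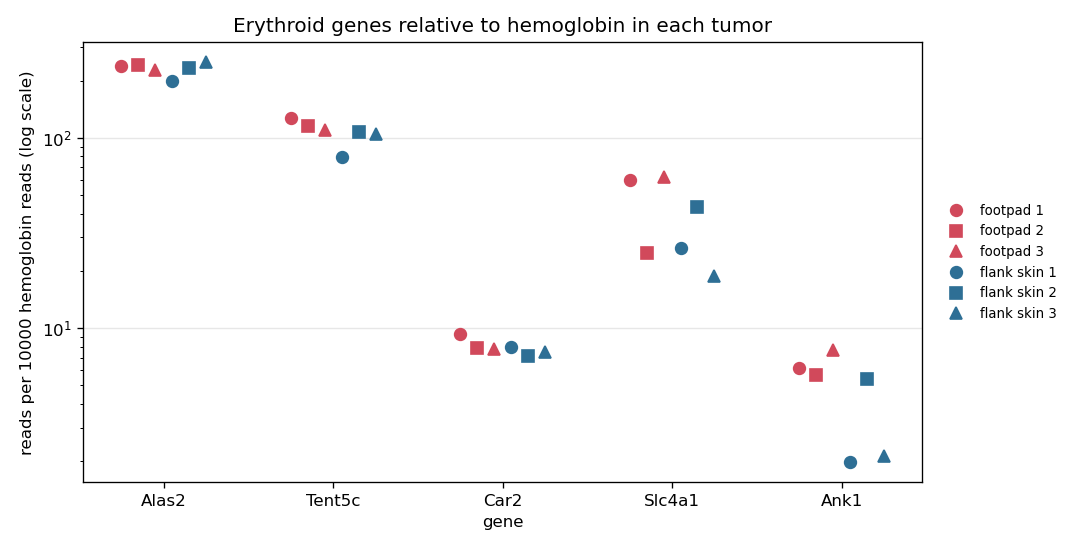
Reads of each gene per 10000 reads of the 4 globin genes, on a log scale, with 1 point per tumor and the colors and symbols of the plot of levels. Alas2 stays between 199 and 249 and Car2 between 7.16 and 9.30, while Slc4a1 spreads from 18.9 to 62.5 and Ank1 from 1.97 to 7.66.

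Genes of the red cell membrane mostly had the same 3 tumors at the top as hemoglobin. Of 17 membrane genes, all tested, 12 had footpad 1, footpad 3 and flank skin 1 as their highest 3 tumors. The same held for 4.29% of all genes tested and for all 4 sums and genes above. These 3 tumors were picked by their share of hemoglobin reads, which the alpha and beta sums make up. For these sums the match was therefore not independent. The order within the 3 was not compared. The other 5 membrane genes were Gypc, Rhd, Icam4, Dmtn and Aqp1. Among the most abundant, Epb41, which codes for protein 4.1 and is also made outside red cells, was counted at 456, 106 and 261 RPM in the footpad and 200.9, 106 and 79.1 in the flank skin. Gypc was between 11.6 and 20.2 and the water channel gene Aqp1 between 4.80 and 40.0, and neither had these 3 tumors at the top. The log2 difference was above 0 in all 17, with a median of 1.10 against -0.0043 over all genes tested, but edgeR called 0 of them. Gypc, Add2, Dmtn and Aqp1 had an unadjusted p under 0.05, 4 of 17 beside 25.3% of all genes tested, and DESeq2 called Add2 and Aqp1 higher in the footpad.

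Most late erythroid genes also had these 3 tumors at the top, but the most abundant of them did not all do so. Of 20 such genes listed, 18 were tested, edgeR and DESeq2 called 0, and 13 had the same highest 3 tumors as hemoglobin. Tent5c was counted at 432, 45.8 and 195 RPM in the footpad and 224, 40.1 and 19.5 in the flank skin, high in the same 3 tumors as hemoglobin. Tfrc, the transferrin receptor gene of dividing cells as well as of erythroid precursors, was counted at 311, 531 and 418 in the footpad and 417, 708 and 824 in the flank skin. It was the gene of the list with an unadjusted edgeR p under 0.05 (log2 difference -0.64, adjusted p = 0.187), and its lowest tumor was footpad 1. Bnip3l, which clears mitochondria from maturing red cells, was highest in flank skin 1, at 496 RPM against 167 to 283 elsewhere. Gpx1 stayed between 233 and 340. Car1 had 0 reads in all 6 tumors.

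Transcription factors of erythroid precursors were at or near the limit of detection, or, but for Nfe2, had other tumors at the top than hemoglobin. Gata1, the master regulator of erythroid precursors, had 10, 0 and 9 reads in footpad tumors 1, 2 and 3 and 4, 0 and 0 reads in flank skin tumors 1, 2 and 3. In the tumors at 0, the 3 reads that a count of 0 allows equal 0.0452 to 0.0551 RPM, and its few reads lay in the 3 tumors with the most hemoglobin. Klf1, which activates adult beta globin, was between 0.294 and 0.422 RPM, a range of 1.44-fold where hemoglobin ranged 18.2-fold. Gfi1b had 10 reads in footpad 3 and 0 in the other 5 tumors. Of 8 genes in this list 6 were tested, and 1 of them, Nfe2, had the same highest 3 tumors as hemoglobin, at 3.20, 0.0603 and 0.959 RPM in the footpad and 0.400, 0.220 and 0 in the flank skin. The more abundant Zfpm1, Tal1 and Lmo2 did not, with Zfpm1 between 8.21 and 20.1. EdgeR and DESeq2 called 0 of the 6. An unadjusted edgeR p under 0.05 was reached by 2 of the 6, beside 25.3% of all genes tested. Lmo2 was higher in the footpad (log2 difference 0.97), and Epor, the erythropoietin receptor gene, was lower (-1.79).

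Other globin genes contributed few reads. Hbq1b and Hbq1a, theta-like genes of the alpha cluster, were at most 3.55 and 1.03 RPM and both had the same highest 3 tumors as the adult genes, with 0 called by edgeR or DESeq2 and none at an unadjusted p under 0.05. Hba-x had 0 reads in all 6 tumors. Hbb-y had 35 reads in footpad 1 and 83 in flank skin 1 and 0 elsewhere, and Hbb-bh1 and Hbb-bh2 were also at 0 in several tumors.

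Among the genes of heme synthesis that all cells share, the final enzyme alone had the same highest 3 tumors as hemoglobin. Fech, which inserts iron into protoporphyrin, was counted at 223, 118 and 148 RPM in the footpad and 149, 75.4 and 68.0 in the flank skin. Alas1, the form of the first enzyme outside erythroid cells, was between 49.0 and 83.8 and lowest in flank skin 1, a range of 1.71-fold against 17.5-fold for Alas2. Urod, an enzyme of the middle of the pathway, was between 36.4 and 48.1. Of 9 genes tested, edgeR and DESeq2 called 0, with none at an unadjusted p under 0.05.

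Genes that handle free hemoglobin and heme gave a mixed picture. Of 12 tested, 3 had the same highest 3 tumors as hemoglobin: Hmox1, Blvrb and Fth1. Hmox1, the heme oxygenase that heme induces, was counted at 142, 50.9 and 146 RPM in the footpad and 96.8, 51.6 and 48.0 in the flank skin. Fth1, the ferritin heavy chain gene, was counted at 1000, 576 and 861 in the footpad and 1455, 852 and 507 in the flank skin. The ferritin light chain gene Ftl1 was between 2511 and 3552, and Lrp1, a receptor for heme bound to hemopexin, was between 262 and 358 in the footpad and between 61.5 and 168 in the flank skin without overlap. EdgeR called 0 of the 12 (Lrp1 adjusted p = 0.0513). An unadjusted edgeR p under 0.05 was reached by 4 of the 12, beside 25.3% of all genes tested. Of these, Slc40a1 was lower in the footpad, and Lrp1, Slc48a1 and Slc11a1 were higher. DESeq2 called Lrp1 and Slc11a1 higher.

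Markers of other blood cells did not keep a steady ratio to hemoglobin. The 15 neutrophil genes, led by S100a9, S100a8, Mmp9 and Retnlg, summed to 370, 7.65 and 192 RPM in the footpad and 19.3, 34.2 and 4.77 in the flank skin. Flank skin 1 was thus low in these genes although it was high in hemoglobin, and 1 of the 10 genes tested, Ltf, had the same highest 3 tumors as hemoglobin. Per 10000 hemoglobin reads the sum was 109, 19.2 and 108 in the footpad and 6.87, 91.9 and 25.6 in the flank skin. Elane and Mpo had 0 reads in all 6 tumors, and Ly6g at most 12. The log2 difference was above 0 in all 10 genes tested, with a median of 3.48, but in each of them the sites overlapped. EdgeR called 0 of the 10, with 8 at an unadjusted p under 0.05, against 25.3% of all genes tested. DESeq2 called Mmp9 higher in the footpad, against 1193 of 28731 genes. The 14 platelet genes, led by Pf4, summed to 30.8, 15.2 and 27.0 in the footpad and 23.9, 18.4 and 3.66 in the flank skin, so that footpad 1, footpad 3 and flank skin 1 were again the highest. Of 12 platelet genes tested, 4 (Ppbp, Itga2b, Gp9 and Clec1b) had these as their highest 3. Pf4 alone had an unadjusted edgeR p under 0.05 and was called higher in the footpad by DESeq2, while edgeR called 0.

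B cell genes summed to between 2.13 and 3.33 RPM, and 0 of 4 tested had the highest 3 tumors of hemoglobin or were called by edgeR or DESeq2, with none at an unadjusted p under 0.05. Blood monocyte genes summed to between 157 and 179 in the footpad and between 121 and 196 in the flank skin. Of 9 tested, Plac8 alone had the highest 3 tumors of hemoglobin, and edgeR called 0. Ly6c2, Nr4a1, Ace and Spn had an unadjusted p under 0.05, 4 of 9 beside 25.3% of all genes tested. Nr4a1 was lower in the footpad (log2 difference -0.58). Ly6c2, Ace and Spn were higher and were called by DESeq2, which called 1193 of 28731 genes higher. The part of leukocytes in the hemoglobin values was not tested.

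Endothelial genes, which mark vessel walls, had other tumors at the top than hemoglobin. Their 10 genes summed to 239, 171 and 266 RPM in the footpad and 92.8, 127 and 107 in the flank skin. Flank skin 1, with the second most hemoglobin, had the lowest endothelial sum, and 0 of the 10 genes had the same highest 3 tumors. Single genes did not all follow the sum. The log2 difference was above 0 in 9 of the 10. The exception, Cldn5 (-0.52), was highest in flank skin 1, at 5.17 RPM, and Plvap was lowest in flank skin 3, at 8.76. EdgeR called 4 of the 10 higher in the footpad, Pecam1, Tie1, Emcn and Plvap, against 2.89% of all genes tested. Their log2 differences were 1.31, 1.20, 1.27 and 1.09, with edgeR adjusted p-values between 0.0252 and 0.0374. DESeq2 called 6 higher, against 1193 of 28731 genes. The edgeR calls varied with the tumors used: 0 of the 10 were called without footpad 1, without footpad 3 or without flank skin 3. Without flank skin 1 or 2 it was 1, and without footpad 2 it was 6. Calls over the whole table also fell, from 649 to 32 without footpad 1, 0 without footpad 3 and 46 without flank skin 3. They were 309 without flank skin 1, 530 without flank skin 2 and 847 without footpad 2. With the replicate number as a block, 0 genes were called in this list or over the whole table. For 8 of the 10 the sites did not overlap, against 29.7% of all genes tested. There were 142, 23.3 and 66.6 hemoglobin reads per endothelial read in the footpad and 303, 29.3 and 17.4 in the flank skin.

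**Figure D4:**
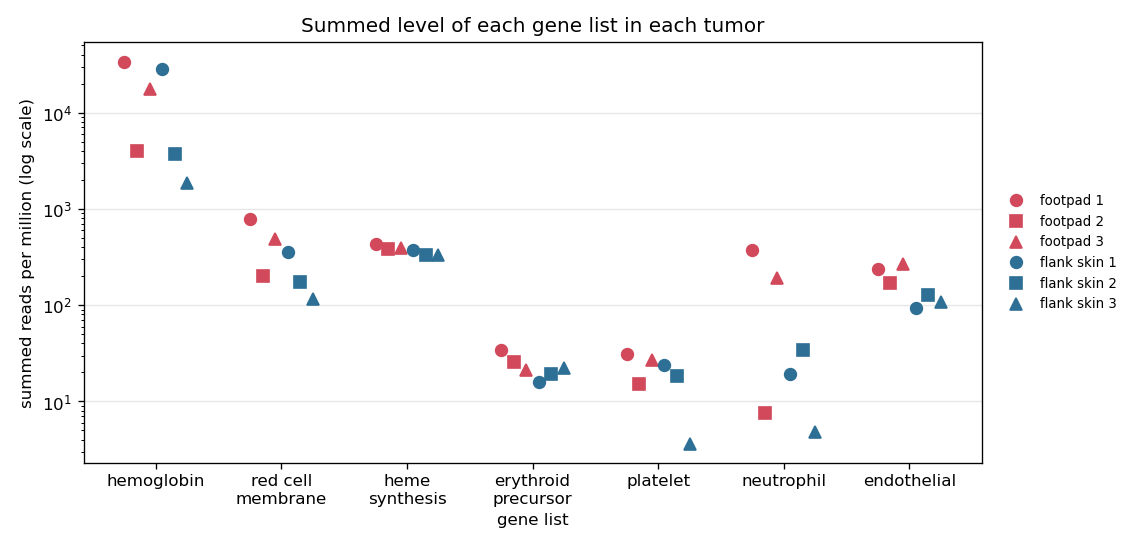
Summed RPM, on a log scale, of the 4 globin genes and of 6 gene lists in each tumor, with the colors and symbols of the plot of levels. Heme synthesis spans 334 to 434 and endothelial genes are higher in all 3 footpad tumors, from 171 to 266, than in the flank skin, from 92.8 to 127, while hemoglobin spans 1862 to 33903 with overlapping sites.

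The genes whose log2 CPM was most like that of hemoglobin over the 6 tumors, by Pearson's r and outside the 6 genes themselves, included Car2 (0.999), Gm3788 (0.998), Gnaz, Aldh1a1, Ube2l6, Rsad2, Prr13, Epb42 and Ncoa4 (0.993). These coefficients describe 6 points that fall into a higher and a lower set of 3. That of Gnaz rests on few reads, as its level lay between 0.095 and 0.432 RPM. Over all genes tested, 17 had an r above 0.99, a count that includes alpha globin, beta globin and Alas2. Alpha and beta globin make up the sum they were compared with, so their r is that of a part with the whole. By the same measure Alas2 had 0.999, with 2 of larger r, beta globin and Car2. Slc4a1 had 0.967, with 51 of larger r over all genes tested. Among the genes named above as most like hemoglobin, Car2, Ube2l6 and Epb42 were also on the red cell lists. Aldh1a1, a retinaldehyde dehydrogenase gene, had 21.7, 2.86 and 11.8 RPM in the footpad and 19.6, 2.96 and 1.12 in the flank skin, a range of 19.3-fold. Rsad2, an interferon-induced gene, was counted at 339, 87.0 and 213 in the footpad and 259, 90.5 and 65.1 in the flank skin. Ncoa4, the receptor that delivers ferritin for breakdown, ranged only 1.93-fold, from 82.9 to 160. None of the 10 genes with the highest r was called by edgeR, with adjusted p-values between 0.539 and 0.807.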

How the data were processed

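RNA of 3 footpad and 3 flank skin B16F10 tumors was analysed, 1 library each, grouped by the sample labels. The authors prepared stranded total RNA libraries, checked reads with FastQC 0.11.7, trimmed them with Trimmomatic and aligned them with HISAT2 2.1.0 to mm10. The table the authors deposited holds whole read counts for each gene, not normalized, and FPKM, in which the authors divided by transcript length and by library depth. The program used for counting, and what it did with reads that fit more than 1 gene, are not given in the sources used here.

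The 6 genes and all gene lists were chosen with earlier results of these data known. RPM values were the deposited counts divided by the sum over all genes of a tumor, between 46529649 and 66364366 reads, and scaled to 1000000, so intervals of shares cover counting error only. The 2 alpha copies and the 2 beta copies were each summed. Sites were compared with edgeR 4.0.16 in R 4.3.3 (TMM scaling, filterByExpr defaults, quasi-likelihood test, Benjamini-Hochberg adjustment over 17208 genes), with calls at an adjusted p under 0.05 and a fold of 2 or more. Standard errors were approximated as the size of the log2 fold change over the square root of F. Ratios were compared with 2-sided exact permutation tests in scipy 1.17.1, without adjustment.

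Named genes were the 6 genes, up to 4 of the highest mean CPM in each list, markers at 0, and the 10 genes with the highest Pearson r to hemoglobin over log2 CPM (prior count 1). Others, such as Ank1 and Add2 and those named beside a count, were picked once their values were known. Some genes that the rule names are not reported here.

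Alternatives were DESeq2 1.42.0, the study's tool, upper-quartile scaling, no filter, 10 counts in every tumor, limma 3.58.1 on log2(FPKM + 1) and log2(FPKM + 0.1), copies kept separate, hemoglobin reads out of the library sizes, the replicate number as a block, and each tumor left out. The fits were tested on simulated data. Tumors of 1 site differed by more than sampling noise, with a chi-square per gene of 46.5 or more. Promoters and positions came from RefSeq on GRCm38.p6, coding sequences from GENCODE on GRCm38.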

Additional observations from a re-analysis of the deposited data

How the results depend on the processing

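In 15 alternatives to the edgeR fit, none of alpha globin, beta globin, Alas2 and Slc4a1 was called. Beta globin turned to -0.23 without footpad 1. Leaving out each tumor gave log2 differences from 0.03 to 3.0 for alpha globin, from -0.23 to 2.75 for beta globin, from 0.0035 to 2.80 for Alas2 and from 0.84 to 3.57 for Slc4a1. The other alternatives gave 0.91 to 1.36, 0.51 to 1.13, 0.86 to 1.25 and 1.53 to 1.84, with adjusted p-values between 0.328 and 0.837. The log2 difference of Alas2 per hemoglobin read turned from 0.061 to -0.031 without flank skin 1 and was at most 0.132 without any other tumor. The number of genes called over the whole table was 649, against 1558 with DESeq2 and 51 and 62 with limma on log2(FPKM + 1) and log2(FPKM + 0.1), and it ranged from 0 to 847 when each tumor was left out. It was 32 without footpad 1, 0 without footpad 3 (3290 genes at an unadjusted p under 0.05), 309 without flank skin 1 and 46 without flank skin 3. Same-numbered tumors did not deviate together (r of 0.05, -0.10 and -0.11) and no source ties a number to an animal, so the numbers were not taken as pairs, though in each of the 3 same-numbered pairs alpha globin, beta globin and Alas2 were higher in the footpad, and Slc4a1 in 2 of 3. With the replicate number as a block, 0 genes were called by edgeR (3554 at an unadjusted p under 0.05), and the log2 differences were 1.27, 1.06, 1.20 and 1.75; 0 endothelial genes were called with it or with limma. The cause of these changes was not tested. No site difference in hemoglobin was detected among 3 tumors a site, which does not show that there was none.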
